A study of Mus musculus with 12 samples.

Results

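Interferon-type chemokines are small secreted proteins that draw leukocytes toward cells that have sensed infection or foreign nucleic acid. The genes described here are Cxcl9, Cxcl10, Cxcl11, Ccl5 and Ccl4, which were chosen by name and looked up by mouse symbol through the Entrez identifiers of the expression table. Of these 5 genes, 4 had a row among the 17571 genes of the table (Cxcl9, Entrez 17329; Cxcl10, 15945; Ccl5, 20304; Ccl4, 20303). Cxcl11 (Entrez 56066), which GENCODE annotates on GRCm38 as a polymorphic pseudogene, was not analysed here.

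RNA-seq was performed in L929 cells, a fibroblast line from C3H/An mice, in 4 groups of 3 libraries. Mock cells received the vehicle DMSO and no plasmid, pEGFP-N1 cells received DMSO and then the EGFP plasmid pEGFP-N1, BX795 cells received 0.5 μM of the TBK1 inhibitor BX795, and BX795 plus pEGFP-N1 cells received the inhibitor and then the plasmid. Pretreatment lasted 1 h and transfection 6 h. All libraries come from 1 cell line, for which the labels name no genetic change, the sources used here do not say whether mock cells received transfection reagent, and nothing says that the 3 libraries of a group came from separate cultures, so p-values measure only the spread between these libraries. Expression is given as FPKM, a fragment count scaled by gene length and by the size of the library, from which read totals cannot be recovered, so sequencing depth is not known here.

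Cytosolic DNA, such as a transfected plasmid, is sensed by cGAS, which signals through STING to the kinase TBK1 and on to type I interferon and interferon-stimulated genes. CXCL9, CXCL10 and CXCL11 bind the receptor CXCR3 on activated T cells and natural killer cells. CCL5 and CCL4 are CC chemokines that draw T cells and monocytes to inflamed tissue. The genes of the CXCR3 ligands lie side by side, and many genes of the CC chemokines lie in another cluster.

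Several facts about the libraries bear on each value that follows. Genes with at least 1 FPKM in at least 3 libraries were tested. Over the 10363 tested genes that are on none of the lists used here, each gene centred on its mean, pEGFP-N1 replicate 2 was most alike to BX795 replicate 2 (Pearson r = 0.728 across genes, which are not independent replicates) and had r = -0.631 and -0.691 with the other libraries of its own label. BX795 plus pEGFP-N1 replicate 1 was most alike to pEGFP-N1 replicate 3 and replicate 1 (r = 0.796 and 0.793) and had r = -0.444 and -0.353 with the others of its label. Both libraries therefore go against their labels, and fold changes of the chemokines that rest on them are given with and without them. Whether these 2 libraries were exchanged with each other was not tested, and groups were kept as labelled. Replicates 2 and 3 of BX795 plus pEGFP-N1 had r = 0.007 with each other, and replicate 3 had no r above 0.162 with any library. BX795 replicate 1 was most alike to BX795 plus pEGFP-N1 replicate 2 (r = 0.524), with r = 0.275 and 0.234 within its own label. Library FPKM sums lay between 467348 and 513761, and none of the 66 pairs of libraries held identical values. Of 10 fibroblast markers 8 had a row, led by Vim, an intermediate filament gene, whereas Thy1 and Dcn had mean FPKM of 0.0492 and 0.005. The 11 leukocyte markers in the table summed to 0.73 to 1.48 FPKM over the 12 libraries, with Ptprc, the gene of the common leukocyte antigen CD45, at a mean of 0.00333 FPKM.

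Cxcl10 lies on chromosome 5 of GRCm38 between 92346638 and 92348889 on the minus strand, 18.6 kb from Cxcl9 (92321347 to 92328079, minus strand) and 10.7 kb from Cxcl11 (92359544 to 92365485, minus strand). None of its 31-base words occurs in the transcripts of another gene. The promoters of Cxcl10 and Cxcl9 are shown because these neighbouring genes, whose products share a receptor, were at very different levels in the same libraries. They were the 2 of the 5 genes with an entry among the RefSeq promoters (GRCm38.p6, 250 bases before to 50 after the start). The windows are chr5:92348840-92349139 for Cxcl10 and chr5:92328030-92328329 for Cxcl9, both minus strand, written 5′ to 3′ with matches to 3 searched motifs in capitals.
Cxcl10: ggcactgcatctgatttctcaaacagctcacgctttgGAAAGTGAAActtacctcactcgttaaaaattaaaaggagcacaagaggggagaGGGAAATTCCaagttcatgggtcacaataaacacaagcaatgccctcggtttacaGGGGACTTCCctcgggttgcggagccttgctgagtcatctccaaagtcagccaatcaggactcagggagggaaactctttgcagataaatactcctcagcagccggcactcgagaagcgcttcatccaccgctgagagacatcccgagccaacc
Cxcl9: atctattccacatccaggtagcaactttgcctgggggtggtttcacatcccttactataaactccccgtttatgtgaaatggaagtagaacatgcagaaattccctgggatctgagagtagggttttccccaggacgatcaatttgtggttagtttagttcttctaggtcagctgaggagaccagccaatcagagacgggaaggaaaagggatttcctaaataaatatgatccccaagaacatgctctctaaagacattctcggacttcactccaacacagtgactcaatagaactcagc
The letters searched on both strands were GAAANNGAAA (ISRE, the element bound by interferon regulatory factors), GGGNNNTTCC (kB, bound by NF-κB) and TTCNNNGAA (GAS, bound by STAT dimers), and the matches did not overlap each other. The Cxcl10 window held the ISRE match GAAAGTGAAA from -213 to -204 relative to the start and the kB matches GGGAAATTCC from -159 to -150 and GGGGACTTCC from -104 to -95. Of the 32851 RefSeq promoter windows searched, 3.44% held the ISRE letters, 5.56% the kB letters and 8.3% the GAS letters. Windows of a single chromosome were left out of this search, so the shares and counts do not cover it. An ISRE match together with a kB match stood in 55 windows (0.167%). With at least 2 kB matches, a combination chosen after the Cxcl10 window was read, there were 2 windows (0.00609%), those of Cxcl10 and Kremen2. The Cxcl9 window held none of the 3 motifs, which says only that these letters are not in this window. A match describes the sequence and is not evidence of binding in these cells.

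Cxcl10, a CXCR3 ligand gene that interferon and NF-κB signalling can induce, read 0.31, 0.47 and 0.42 FPKM in replicates 1, 2 and 3 of mock. The pEGFP-N1 libraries, in the same order, held 133, 1.58 and 123 FPKM. The BX795 libraries held 7.86, 0.90 and 1.85 FPKM, and cells given inhibitor and plasmid held 136, 5.68 and 6.47 FPKM. Among the 12 values a high tier stood apart. This high tier of 3 libraries held pEGFP-N1 replicates 1 and 3 and BX795 plus pEGFP-N1 replicate 1. The mock libraries were lowest, at up to 0.47 FPKM, and the other 6 libraries spread from 0.90 to 7.86 FPKM, with no wide gap above mock. The lowest library of the high tier was 15.7 times the next library (123 against 7.86 FPKM), and within the high tier the values spanned only 123 to 136 FPKM. Group means were 0.40 ± 0.0819 FPKM (SD, n = 3) in mock, 85.9 ± 73.2 FPKM with pEGFP-N1, 3.54 ± 3.77 FPKM with BX795 and 49.4 ± 75.1 FPKM with both. The SD exceeded the mean in both groups that received BX795 and came to less than the mean in mock and with pEGFP-N1. In these bulk libraries, a change in the number of cells that make the RNA and a change in RNA per cell cannot be told apart.

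Ccl5, a CC chemokine that attracts T cells (chromosome 11, 83525778 to 83530518, minus strand), read 0.52, 0.10 and 0.10 FPKM in replicates 1, 2 and 3 of mock. The pEGFP-N1 libraries held 253, 0.21 and 243 FPKM. The BX795 libraries held 1.70, 0.21 and 0 FPKM, and those of the combined treatment held 260, 0.21 and 0.55 FPKM. The same 3 libraries were high as for Cxcl10, but the other 9, mock included, were all at 1.70 FPKM or below. The lowest high library was 143 times the next one (243 against 1.70 FPKM). In the high libraries Ccl5 ranked 294, 301 and 289 of all genes by FPKM in pEGFP-N1 replicate 1, pEGFP-N1 replicate 3 and BX795 plus pEGFP-N1 replicate 1, and Cxcl10 ranked 618, 648 and 601. Of the 31-base words of Ccl5, 0.539% also occur in transcripts of other genes.

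Ccl4, a CC chemokine that attracts monocytes and other leukocytes (chromosome 11, 83662584 to 83664683, plus strand, 132.1 kb from Ccl5), was listed at 0 in all 3 mock libraries. The pEGFP-N1 libraries held 6.51, 0.09 and 7.23 FPKM, the BX795 libraries 0.09, 0 and 0 FPKM, and the libraries of the combined treatment 8.52, 0 and 0.09 FPKM. Ccl4 was thus high in the same 3 libraries and at 0.09 FPKM or listed at 0 in the rest. In the high libraries its FPKM was 2.57%, 2.98% and 3.28% of that of Ccl5.

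Cxcl9, whose product shares the receptor CXCR3 with CXCL10, stayed low in every library. Mock replicates held 0.05, 0.15 and 0.18 FPKM and pEGFP-N1 replicates 0.30, 0.25 and 0.22 FPKM. BX795 replicates held 0.21, 0.28 and 0.11 FPKM, and replicates of the combined treatment 0.10, 0.13 and 0.45 FPKM. Its highest library was BX795 plus pEGFP-N1 replicate 3, and in BX795 plus pEGFP-N1 replicate 1, where Cxcl10 was highest of all, Cxcl9 was second lowest.

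Several fibroblast markers had lower values in the high tier. Of the 8 with a row, 5 (Col1a1, Col1a2, Col3a1, Pdgfrb and Fn1) were lower in each of the 3 high libraries than in each of the other 9, as were 8.25% of all genes in the table. The high libraries were picked by their chemokine levels, so such counts are a description with no test. Col1a2, a collagen gene, was at 26.5 to 27.6 FPKM against 34.9 to 41.7 FPKM, and Pdgfrb, a growth factor receptor gene, at 20.6 to 22.2 FPKM against 30.6 to 41.2 FPKM. The markers summed to 1990 to 2024 FPKM in the high tier and 1725 to 2247 FPKM elsewhere, most of it Vim, and limma called none of them in any comparison. Their part in the chemokine values was not tested.

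**Figure D1:**
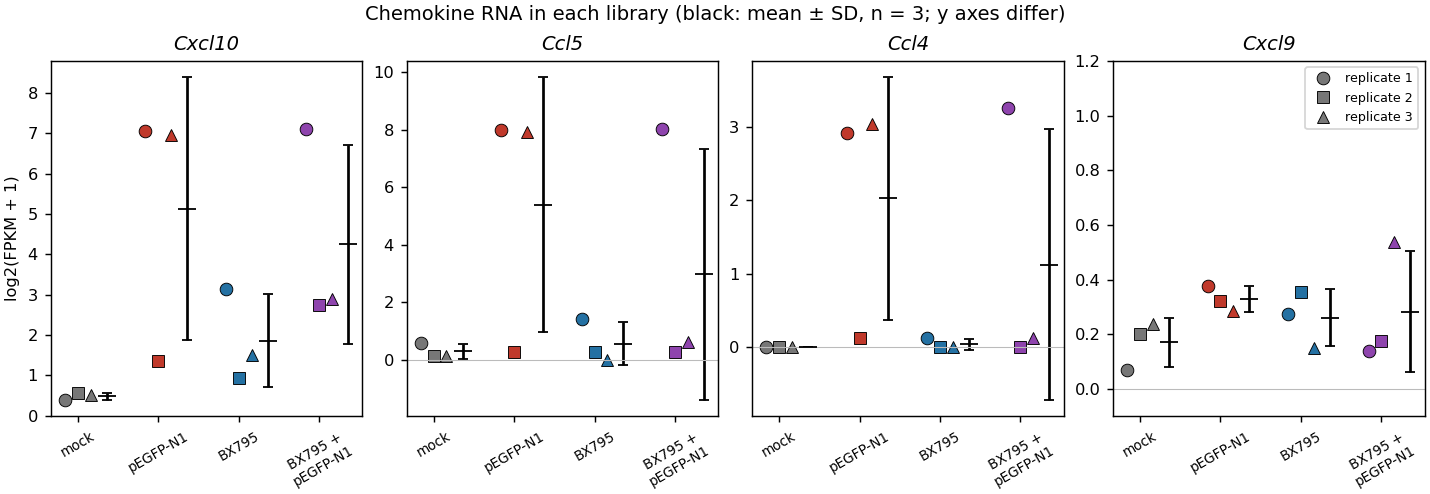
The y axes give log2(FPKM + 1) for Cxcl10, Ccl5, Ccl4 and Cxcl9 in the 4 groups, with 1 point per library (circle, square and triangle for replicates 1, 2 and 3) and the mean ± SD (n = 3) in black. pEGFP-N1 replicates 1 and 3 and BX795 plus pEGFP-N1 replicate 1 stand apart for the first 3 genes, and Cxcl9 stays between 0.05 and 0.45 FPKM.

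The comparison of pEGFP-N1 with mock asks how far plasmid DNA raises these chemokines in cells with an active TBK1. The mean log2 fold change on the log2(FPKM + 1) scale, which understates changes of low genes, was 4.65 for Cxcl10 (standard error 1.44, 95% interval 1.49 to 7.80), 5.10 for Ccl5 (2.13, 0.44 to 9.77) and 2.02 for Ccl4 (0.84, 0.18 to 3.87). The p-values from limma, a linear model fitted to every tested gene, adjusted over all 10412 of them by the Benjamini-Hochberg method, were 0.644, 0.995 and 0.993, so 0 of the 3 tested members was called at an adjusted p under 0.05, where 0.0672% of all tested genes were. At an unadjusted p under 0.05 limma passed all 3, with 4.69% of all tested genes passing. Ccl5 and Ccl4 reached the filter of 1 FPKM in 3 libraries only through the high tier, so these counts do not support a difference. By rank of single libraries, Cxcl10, Ccl4 and Cxcl9 were higher in every pEGFP-N1 library than in every mock library, 3 of the 4 genes in the table against 4.63% of all genes. The two-sided exact permutation test of 3 libraries against 3 gave p = 0.1 for each of them, the smallest p it can give. Ccl5 overlapped mock, since pEGFP-N1 replicate 2 (0.21 FPKM) lay below mock replicate 1 (0.52 FPKM), with an exact permutation p of 0.2. For Cxcl9 the difference in means was 0.26 against 0.13 FPKM, both below the filter of 1 FPKM. For Ccl4 the lack of overlap rests on 0.09 FPKM in pEGFP-N1 replicate 2 against 0 in mock. The count of 3 of the 4 genes thus rests largely on values near the floor.

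The spread within the pEGFP-N1 label came from replicate 2. Without that library, the log2 fold change was 6.53 for Cxcl10 (limma adjusted p = 0.0460), 7.67 for Ccl5 (0.0933) and 2.97 for Ccl4 (0.111), so Cxcl10 passed the threshold. Leaving out pEGFP-N1 replicate 1 took Cxcl10 down to 3.68, and without replicate 1, replicate 3 or any 1 of the mock libraries only 1 of the 3 members passed an unadjusted p under 0.05, where 2.76% to 3.51% of all tested genes did. Seen library by library, pEGFP-N1 replicates 1 and 3 exceeded the mean FPKM of mock 333-fold and 308-fold for Cxcl10, and replicate 2 exceeded it 3.95-fold. Relative to the mock mean of log2(FPKM + 1), Ccl5 was higher by 7.70 and 7.64 in replicates 1 and 3 and differed by -0.02 in replicate 2. In replicates 1 and 3, 3 of the 4 genes were at least 1 above mock on this scale, as were 0.461% and 0.467% of all genes, and in replicate 2 none of the 4 was, against 0.194% of all genes (no test, single libraries).

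The comparison of BX795 with mock describes the inhibitor without plasmid. Cxcl10 was higher in every BX795 library than in every mock library (two-sided exact permutation test, p = 0.1, the smallest possible), with a log2 fold change of 1.38 (95% interval -1.78 to 4.53, limma adjusted p = 0.653). It was the only one of the 4 genes whose groups did not overlap, where 16.3% of all genes were higher in every BX795 library. The BX795 libraries differed among themselves, at 19.7, 2.25 and 4.63 times the mock mean in replicates 1, 2 and 3, and the log2 fold change fell to 0.73 without replicate 1. Ccl5 differed by 0.28 (adjusted p = 0.960, exact permutation p = 0.8) and Ccl4 by 0.04 (adjusted p = 0.985, exact permutation p = 1.0). Leaving out BX795 replicate 1 turned the Ccl5 difference to -0.16. With only the 6 libraries of these groups in the fit, the adjusted p of Cxcl10 was 0.0590 and 20.6% of all tested genes were called. By limma over all 12 libraries 0 of the 3 tested members was called here, against 0.0672% of all tested genes, and 0 passed an unadjusted p under 0.05, against 13.8%. In single libraries, 2, 0 and 1 of the 4 genes were at least 1 above the mock mean in BX795 replicates 1, 2 and 3, against 0.148%, 0.165% and 0.194% of all genes.

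BX795 plus pEGFP-N1 against BX795 asks what the plasmid adds when TBK1 is inhibited. The log2 fold changes were 2.39 for Cxcl10 (95% interval -0.77 to 5.54, limma adjusted p = 0.604), 2.41 for Ccl5 (-2.26 to 7.07, 0.647) and 1.08 for Ccl4 (-0.76 to 2.93, 0.624). None of the 4 genes had groups that did not overlap, where 3.22% of all genes were higher in every library with the plasmid. These values rest on BX795 plus pEGFP-N1 replicate 1. Without it, Cxcl10 differed by 0.96 (adjusted p = 0.814), Ccl5 by -0.12 (0.988) and Ccl4 by 0.02 (0.993). Cxcl10 in replicates 2 and 3 (5.68 and 6.47 FPKM) was above BX795 replicates 2 and 3 and below BX795 replicate 1 (7.86 FPKM). The count at least 1 above the mock mean was 3, 1 and 1 of the 4 genes in BX795 plus pEGFP-N1 replicates 1, 2 and 3, against 0.489%, 0.154% and 0.364% of all genes. Limma called 0 of 3 members (0% of all tested genes) and passed 0 at an unadjusted p under 0.05 (5.56%).

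The remaining level with BX795 plus plasmid is given for each chemokine as a description of single libraries, with no test. As a share of each gene's highest library (BX795 plus pEGFP-N1 replicate 1 for all 3), Cxcl10 was at 4.17% and 4.75% in replicates 2 and 3, Ccl5 at 0.0809% and 0.212%, and Ccl4 at 0 and 1.06%. With BX795 alone, Cxcl10 was at 5.78%, 0.661% and 1.36% and Ccl5 at 0.655%, 0.0809% and 0. Against the mock mean, Cxcl10 in BX795 plus pEGFP-N1 replicates 2 and 3 was at 14.2 and 16.2 times the mean, while Ccl5 was 0.875 and 2.29 times its mock mean. Cxcl10 was thus above every mock library in each of the 9 treated libraries, whereas Ccl5 was between 0 and 0.55 FPKM in 5 of them, against 0.10 to 0.52 FPKM in mock. The share of Ccl4 rests on a value of 0.09 FPKM in replicate 3.

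The difference between these genes can be read from their ratio in a library. Ccl5 FPKM divided by Cxcl10 FPKM was 1.90, 1.97 and 1.91 in pEGFP-N1 replicates 1 and 3 and BX795 plus pEGFP-N1 replicate 1. It was 0.133 in pEGFP-N1 replicate 2, 0.216, 0.233 and 0 in the BX795 libraries, and 0.0370 and 0.0850 in BX795 plus pEGFP-N1 replicates 2 and 3. In mock, where both genes were below 0.6 FPKM, it was 1.68, 0.213 and 0.238. FPKM divides by gene length, so the 2 genes can be compared within a library. The ratio was thus nearly the same in the high libraries and lower in each of the other 6 treated libraries (a description over single libraries, with no test).

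**Figure D2:**
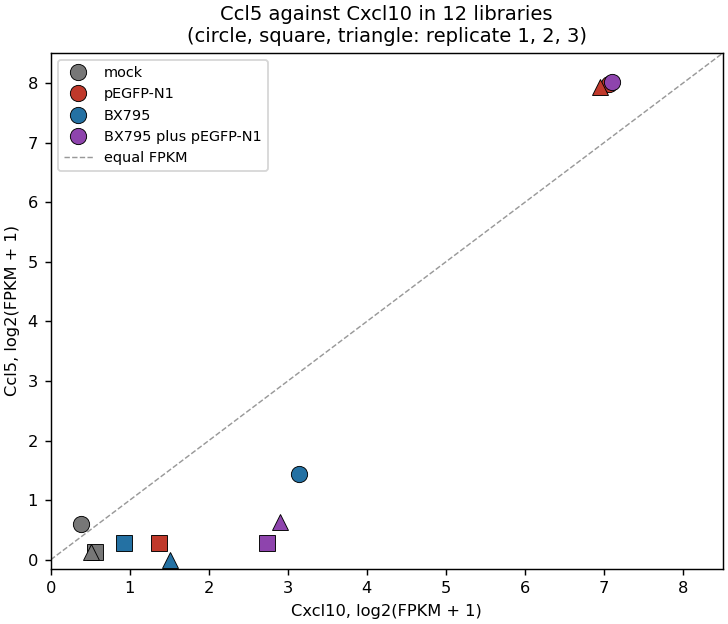
Ccl5 is plotted against Cxcl10 as log2(FPKM + 1), 1 point per library, coloured by group and shaped by replicate, with a dashed line at equal FPKM. The 3 high libraries lie together above the line at 123 to 136 FPKM of Cxcl10, and libraries below them spread along the Cxcl10 axis up to 7.86 FPKM with Ccl5 at or below 1.70 FPKM.

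The direct comparison of BX795 plus pEGFP-N1 with pEGFP-N1 asks whether the inhibitor lowers the chemokines in transfected cells. As labelled, the log2 fold change was -0.88 for Cxcl10 (95% interval -4.04 to 2.27), -2.42 for Ccl5 (-7.09 to 2.24) and -0.90 for Ccl4 (-2.74 to 0.94), each with a limma adjusted p of 0.959. Exact permutation tests gave p = 1.0 for Cxcl10 and Ccl5 and 0.9 for Ccl4 and Cxcl9 (two-sided). The groups overlapped for all 4 genes, where 1.48% of all genes were lower and 1.9% higher in every library with BX795. Limma called 0 members (0% of all tested genes) and passed 0 at an unadjusted p under 0.05 (1.59%). These intervals include large differences in either direction, so the comparison does not show that the groups were alike.

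Leaving out pEGFP-N1 replicate 2 gave -2.76 for Cxcl10, -4.98 for Ccl5 and -1.85 for Ccl4 (limma adjusted p = 0.402 for all 3), and leaving out BX795 plus pEGFP-N1 replicate 1 gave -2.31, -4.94 and -1.96 (0.416, 0.243 and 0.236). At an unadjusted p under 0.05 limma then passed 3 of 3 and 2 of 3 members, where 12.2% and 16.4% of all tested genes passed. Ccl5 and Ccl4 were tested only through the high tier, which this comparison then sets against low libraries, so neither these counts nor those of the interaction support a difference. Without both of these libraries, an omission chosen after the values were seen and given with no test, the differences were -4.19 for Cxcl10, -7.51 for Ccl5 and -2.91 for Ccl4. These 3 of the 4 genes were then lower in both remaining libraries with BX795 than in both without, as were 17.5% of all genes. In the opposite direction, leaving out pEGFP-N1 replicate 1 or replicate 3 turned Cxcl10 to 0.09 and 0.03. The interaction term, the plasmid effect in vehicle minus that in inhibitor, was 2.26 for Cxcl10 (95% interval -2.20 to 6.73), 2.70 for Ccl5 (-3.90 to 9.29) and 0.94 for Ccl4 (-1.67 to 3.55), with limma adjusted p of 0.846, 0.856 and 0.862. Without pEGFP-N1 replicate 2 it was 4.14, 5.26 and 1.89, and without BX795 plus pEGFP-N1 replicate 1 it was 3.69, 5.22 and 2.0. Over all fits with 1 library left out it ran from 1.29 to 4.14 for Cxcl10 (lowest without pEGFP-N1 replicate 1), from 1.35 to 5.26 for Ccl5 and from 0.38 to 2.0 for Ccl4 (both lowest without BX795 plus pEGFP-N1 replicate 2), with adjusted p of 0.766 or above. No member was called for it (0% of all tested genes), and 0 passed an unadjusted p under 0.05 (3.91%), against 2 of 3 without pEGFP-N1 replicate 2 (3.32%) and 1 of 3 without BX795 plus pEGFP-N1 replicate 1 (5.48%). The 4 pairwise comparisons share groups and are not independent of each other.

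**Figure D3:**
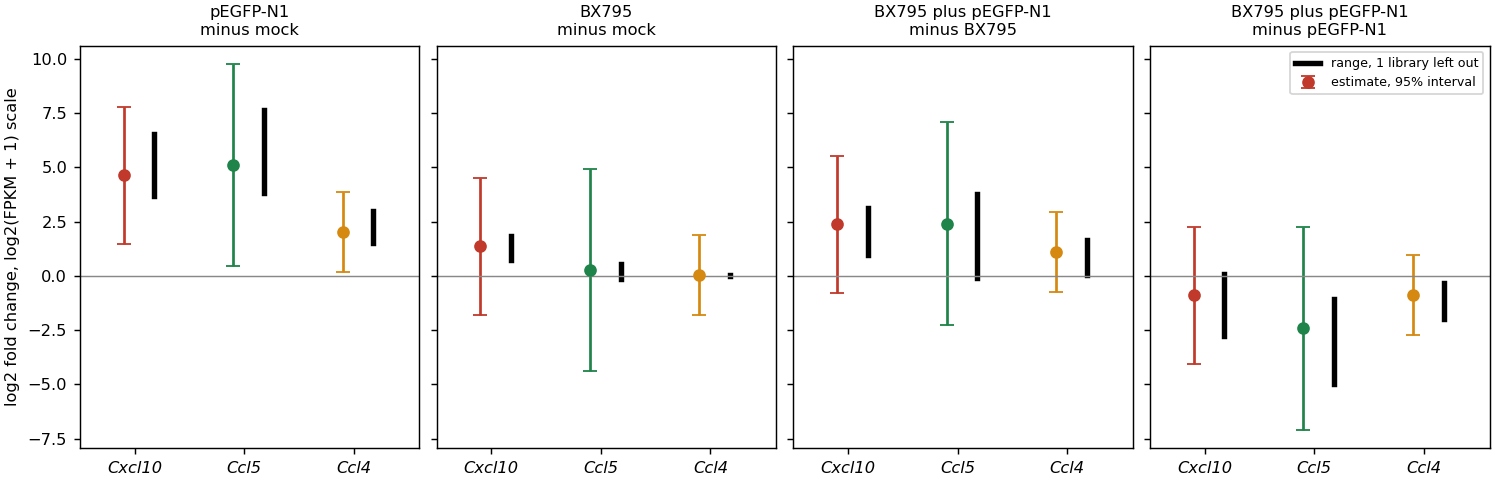
For each of 4 comparisons the y axis gives the log2 fold change of Cxcl10, Ccl5 and Ccl4 on the log2(FPKM + 1) scale, with the limma 95% interval as a coloured bar and the range over fits with 1 library left out as a black bar. Only the intervals of pEGFP-N1 minus mock lie above 0, and those of BX795 plus pEGFP-N1 minus pEGFP-N1 span 0 for all 3 genes.

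Receptors of these chemokines were close to 0 in the fibroblasts. Of 8 listed receptors and modifiers 5 had a row and none passed the filter on low values. Ackr3, an atypical receptor that takes up CXCL11 and CXCL12, had the highest mean of these over the 12 libraries, at 0.178 FPKM.

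Other chemokine genes were read for comparison. Of 33 listed, 24 had a row and 8 were tested. Of the 24, only Ccl7 was highest in the same 3 libraries as Ccl5, where 6.42% of all genes in the table were. Its margin was small, at 395 FPKM in BX795 plus pEGFP-N1 replicate 1 against 383 FPKM in replicate 2 of that group. This count lies near the share of all genes, so it is not read as a trait of these chemokines. Most of the 24 were also below the filter on low values. The median log2 fold change of the 8 for pEGFP-N1 over mock was 0.30 (0.20 without pEGFP-N1 replicate 2), against -0.00257 for all tested genes. Among them limma called Ccl2 and Ccl7, both of which attract monocytes through CCR2, with log2 fold changes of 1.17 (adjusted p = 0.0128) and 1.11 (0.0473), 2 of 8 against 0.0672% of all tested genes. Mock libraries held 372, 376 and 341 FPKM of Ccl2, and pEGFP-N1 libraries 908, 696 and 872 FPKM. Ccl2 was also called for BX795 over mock (1.08, adjusted p = 0.0119), with 946, 717 and 668 FPKM. The calls were lost in 5 (Ccl2, both comparisons) and 10 (Ccl7) of the 12 fits with 1 library left out, with each fold change still above 0. For pEGFP-N1 the Ccl2 call was lost without any of the mock libraries or pEGFP-N1 replicate 1 or 3, and for BX795 without any of the mock libraries or BX795 replicate 1 or 2. The Ccl7 call was kept only without pEGFP-N1 replicate 2 or BX795 replicate 1. In BX795 plus pEGFP-N1 replicates 2 and 3, where Ccl5 was at 0.21 and 0.55 FPKM, Ccl2 was at 988 and 780 FPKM.

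Cxcl2, a neutrophil attractant, was at 4.11 to 4.59 FPKM in mock and, among the treated libraries, was higher where Ccl5 was low. It was at 8.03 and 6.71 FPKM in pEGFP-N1 replicates 1 and 3 and at 15.3 FPKM in replicate 2. In the BX795 libraries it was at 29.6, 15.5 and 13.8 FPKM, and in BX795 plus pEGFP-N1 at 7.49, 32.2 and 28.2 FPKM. Its log2 fold change for BX795 over mock was 1.89 (limma adjusted p = 0.167). The libraries with the most Cxcl2 (BX795 replicate 1 and BX795 plus pEGFP-N1 replicates 2 and 3) were also those with 5.68 to 7.86 FPKM of Cxcl10, below the high tier. Cxcl1, the closest relative of Cxcl2 in function, had a log2 fold change of 1.10 for the same comparison (adjusted p = 0.253). Ccl25 and Cx3cl1 were at 9.03 to 11.6 FPKM and 7.07 to 10.6 FPKM over the 12 libraries and were not called.

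**Figure D4:**
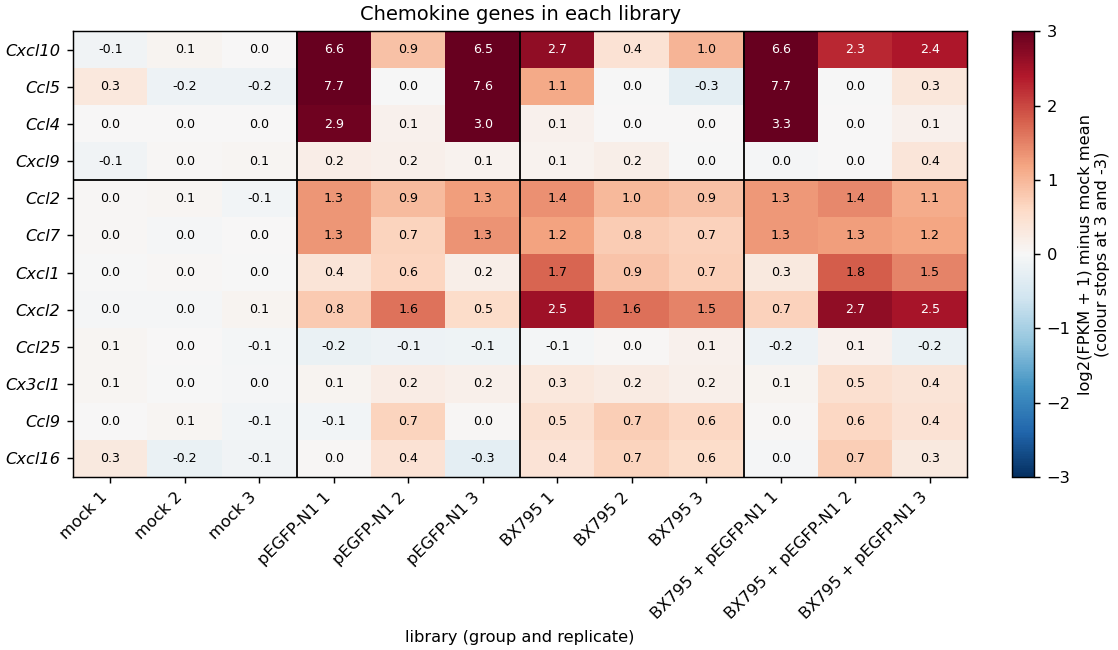
Rows are the 4 chemokine genes described here and the 8 other chemokine genes tested, columns are the 12 libraries, and each cell gives log2(FPKM + 1) minus the mock mean (colour stops at 3 and -3). Cxcl10, Ccl5 and Ccl4 are strongest in 3 libraries, whereas Ccl2 and Ccl7 are above mock in all 9 treated libraries and Cxcl2 is highest in BX795 replicate 1 and BX795 plus pEGFP-N1 replicates 2 and 3.

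The genes that switch these chemokines on were listed as 25 sensors, kinases, factors and receptors, of which 25 had a row and 23 were tested. Their median log2 fold change for pEGFP-N1 over mock was 0.10 (0.092 without pEGFP-N1 replicate 2), and limma called only Irf1 higher (0.91, adjusted p = 0.0265) and none lower, against 0.0672% of all tested genes. The Irf1 call was lost in 8 of the 12 fits with 1 library left out (any mock library, pEGFP-N1 replicate 1 or 3, BX795 replicate 2 or 3, or BX795 plus pEGFP-N1 replicate 2). Irf1, an interferon regulatory factor, was above mock in all 9 treated libraries, at 20.2 to 28.7 FPKM against 12.7 to 14.9 FPKM. Of the 25, 4 (Irf1, Irf7, Irf9 and Stat2, a count made after their values were seen) were highest in the 3 high libraries (6.42% of all genes) and 2 (Ifnar1 and Ifngr2, interferon receptor genes) lowest there (8.25%). Irf7 was at 2.07 to 2.23 FPKM there and 0.43 to 1.0 FPKM elsewhere, and Irf9 at 7.42 to 7.85 FPKM and 2.55 to 3.90 FPKM. For Stat2, which with IRF9 carries the type I interferon signal, the pEGFP-N1 libraries held 21.1, 6.79 and 20.6 FPKM and those of the combined treatment 19.5, 6.75 and 7.65 FPKM, against 5.12 to 5.87 FPKM in mock. Nfkbia, an NF-κB inhibitor gene that NF-κB itself induces, was above mock in all 9 treated libraries and, like Cxcl2, lower in the high tier than in the other 6. Its pEGFP-N1 libraries held 104, 182 and 96.2 FPKM, its BX795 libraries 230, 185 and 180 FPKM and those of the combined treatment 103, 245 and 144 FPKM, against 76.2 to 81.4 FPKM in mock. Tbk1, the kinase that BX795 inhibits, was at 18.7 to 21.9 FPKM throughout, and Ifnb1, the interferon β gene, at no more than 0.16 FPKM.

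Of 12 listed interferon-stimulated comparison genes, 11 had a row, and 10 of these were highest in the same 3 libraries as Ccl5, against 6.42% of all genes. The exception was Gbp2, a guanylate-binding protein gene singled out after its values were seen, which was at 0.72 to 1.0 FPKM in the high tier and 0.75 to 0.85 FPKM with BX795. Over the 9 that were tested, the median for pEGFP-N1 over mock was 2.81 on the log2 scale (4.35 without pEGFP-N1 replicate 2), with 0 limma calls (all-gene share 0.0672%). At an unadjusted p under 0.05 limma passed 7 of the 9, against 4.69% of all tested genes, a count that ran from 0 to 9 with 1 library left out. It was 0 without pEGFP-N1 replicate 1 or replicate 3, 1 without any 1 of the mock libraries, 5 without any 1 of the BX795 libraries or BX795 plus pEGFP-N1 replicate 3, and 9 without pEGFP-N1 replicate 2 or BX795 plus pEGFP-N1 replicate 1. Of the 9, 6 reached the filter on low values only through the high tier, among them 4 of the 7, so this count does not support a difference. For Ifit1, whose product binds RNA and restricts viruses, the pEGFP-N1 libraries held 96.7, 0 and 95.2 FPKM and those of the combined treatment 92.6, 0.17 and 0.57 FPKM. For Oasl1 the same libraries held 212, 1.01 and 208 FPKM and 214, 1.61 and 5.08 FPKM. In mock, Ifit1 was at 0.18 to 0.20 FPKM and Oasl1 at 1.19 to 1.59 FPKM, so pEGFP-N1 replicate 2 was below mock for both, while Cxcl10 in that library was above mock.

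The genes most alike to each chemokine were found by Pearson's r of log2(FPKM + 1) over the 12 libraries, as a description in which 3 high libraries set nearly all of r. For Ccl5 they were Ifit1 (r = 0.997), Hdc, Rsad2, Plat and Znfx1 (each 0.995), and r was 0.995 with Ccl4. For Cxcl10 they were Cyp26a1 (0.974), Apol9a (0.970), Ddx58 (0.968), Lrrc8d (0.967) and Ptpn22 (0.965), and r was 0.952 with Ccl5. Ddx58, the gene of the RNA sensor RIG-I, was above mock in pEGFP-N1 replicate 2 (2.35 FPKM against 1.52 to 1.65), as Cxcl10 was. The r of the 5 most alike genes thus lay higher for Ccl5 than for Cxcl10.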

How the data were processed

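RNA-seq of 12 L929 libraries was used. The deposited values are FPKM, which per the labels and the study's methods the authors made from BGISEQ-500 reads aligned to GRCm38.p5 with Bowtie2 2.2.5 (up to 200 alignments per read) and RSEM. The table names genes by Entrez identifier, of which 17450 of 17571 matched RefSeq names. Cxcl11 had no row matched here and was not analysed here.

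log2(FPKM + 1) was fitted with limma 3.58.1 (R 4.3.3, group means, trend) over all 12 libraries for the 10412 genes with at least 1 FPKM in at least 3 libraries, with Benjamini-Hochberg adjustment over these genes and calls at an adjusted p under 0.05. Methods thresholds (false discovery rate of at most 0.001 and log2 fold change of at least 2) were an alternative. Single genes were compared by two-sided exact permutation tests with numpy 2.4.6. The script was tested on simulated data. Named genes were the members, up to 6 genes per list by mean FPKM, and the 5 most alike to Cxcl10 and Ccl5. Irf1, Irf7, Irf9, Stat2, Ifnar1, Ifngr2, Tbk1, Ifnb1, Gbp2, Thy1, Dcn, Ptprc and the genes next to the chemokines fall outside this rule and were chosen after their values were seen. The members and lists were chosen with earlier results of these data known. Depth is unknown from FPKM, so no counting interval is given. Coordinates are GENCODE annotation of GRCm38, and promoters are RefSeq sequences. Lists covered receptors and modifiers, other chemokines, induction pathway genes, interferon-stimulated genes, fibroblast markers and leukocyte markers.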

Additional observations from a re-analysis of the deposited data

How the results depend on the processing

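The log2 fold changes of Cxcl10, Ccl5, Ccl4 and the called Ccl2, Ccl7 and Irf1 and the counts of members called or not overlapping were recomputed with 2 other pseudocounts, no filter, a mean filter of 5 FPKM (which leaves out Ccl4), 3 other scalings, limma without trend, only the groups compared (not possible for the interaction), the replicate block, other thresholds and each library left out. Of these, 372 log2 fold changes and 154 counts kept their direction and side of the threshold or moved by less than 1.5 times. Of the other fold changes, 37 (all of Ccl2, Ccl7 or Irf1) lost their call, 6 turned, 3 moved (without both libraries that go against their labels) and 1 gained a call (Cxcl10), and 2 counts moved and 2 rose. For pEGFP-N1 over mock, members called ranged from 0 to 1 with 1 library left out (1 without pEGFP-N1 replicate 2) and were 3 at an unadjusted p under 0.05. Members not overlapping between BX795 plus pEGFP-N1 and BX795 ranged from 0 to 1 with 1 library left out (1 without BX795 replicate 1). The share of all genes in that setting is not given here, so this count is not read as a difference. For the combined treatment against pEGFP-N1, 3 members did not overlap without both libraries that go against their labels. That choice was made after seeing the data and leaves 17.5% of all genes lower without overlap. Directions turned for Ccl5 in BX795 over mock (-0.26 with pseudocount 0.01, and -0.16 to 0.56 with 1 library left out), for Ccl5 in BX795 plus pEGFP-N1 over BX795 (-0.12 to 3.76 with 1 library left out, and -0.12 without both libraries) and for Cxcl10 in BX795 plus pEGFP-N1 over pEGFP-N1 (-2.76 to 0.09 with 1 library left out, the 2 positive values being 0.085 and 0.03). The cause was not tested. With pseudocount 0.01 the pEGFP-N1 difference was 6.20 for Cxcl10 and 7.39 for Ccl4, which shows how far Ccl4, at 0 in mock, depends on that choice. Replicate numbers did not meet the rule for pairing, since same-number correlations ran from 0.635 to -0.183 for pEGFP-N1 against the combined treatment. With the replicate block 0 members were called in each comparison, and the pEGFP-N1 difference of Cxcl10 had an adjusted p of 0.395. Over all genes, 7 calls for pEGFP-N1 over mock became 2 without a filter, 4 with only the groups compared and 17 without pEGFP-N1 replicate 2, and 7 calls for BX795 over mock became 2150 with only the groups compared and 149 and 82 without pEGFP-N1 replicate 2 or BX795 plus pEGFP-N1 replicate 1. The pEGFP-N1 calls of Ccl2, Ccl7 and Irf1 were lost in 1, 6 and 2 of the 10 settings that keep all libraries. Depth is unknown, so values of Cxcl9, and of Ccl5 and Ccl4 outside the high libraries, have no counting error.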

Other observations

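Genes next to the chemokines were read by position. Heatr9, a gene 3.3 kb from Ccl5 singled out after its values were seen, had 0 FPKM in each mock library. The pEGFP-N1 libraries held 1.69, 0.03 and 2.19 FPKM, the BX795 libraries 0.03, 0 and 0 FPKM and those of the combined treatment 1.60, 0 and 0 FPKM. It was high in the same 3 libraries as Ccl5, with a log2 fold change of 1.05 for pEGFP-N1 over mock (limma adjusted p = 0.925). Between Ccl5 and Ccl4 lie other chemokine genes that did not follow them. Ccl9 was at 3.60 to 7.14 FPKM, Ccl6 at no more than 0.16 FPKM and Ccl3, which is next to Ccl4, at 0.15 to 0.58 FPKM.

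Around Cxcl10, the nearest tested genes were not chemokines. Sdad1, Naaa, Nup54 and Scarb2, which lie 36.6 to 92.4 kb from it, had log2 fold changes of -0.03 to 0.08 for pEGFP-N1 over mock, and limma called none of them (0.0672% of all tested genes were called). Sdad1 was nonetheless highest in the same 3 libraries as Cxcl10, as were 6.42% of all genes in the table. It was at 18.9 and 19.7 FPKM in pEGFP-N1 replicates 1 and 3 and 19.2 FPKM in BX795 plus pEGFP-N1 replicate 1. BX795 plus pEGFP-N1 replicate 3 came next, at 17.8 FPKM. Mock libraries held 14.9 to 15.5 FPKM and pEGFP-N1 replicate 2 held 11.2 FPKM.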
